A study of Mus musculus with 9 samples.

Results

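The lysyl oxidase family was examined in MC38 colon carcinoma cells and in 2 derivative lines selected in the liver. Its 5 members, Lox, Loxl1, Loxl2, Loxl3 and Loxl4, were taken by gene symbol from the 16399 genes listed in each library, and the family was chosen with earlier results of these data known. Of the 5, 3 members (Loxl2, Loxl3 and Loxl4) were among the 11287 genes with 1 TPM or more in 3 or more libraries and were tested, TPM being a level scaled to transcript length and to the total of the library. Lox and Loxl1 stayed below that level in every library and were not among the tested genes.

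The study sequenced poly(A) RNA from the parental line MC38-P and from its derivatives MC38-LM3a and MC38-LM3b, with 3 libraries of each and 9 in all. MC38 is a cell line from a colon carcinoma of a C57BL/6 mouse, labelled in the records as colon epithelial cells. The cells were tagged with GFP and firefly luciferase, which the parental MC38-P line and both derivatives share. MC38-LM3a and MC38-LM3b came out of the third round of injection into the spleen of C57BL/6 mice, resection of liver lesions, digestion with collagenase and regrowth in culture. All 3 were then grown as cultures in high-glucose DMEM with serum and received no treatment, so the comparison is between lines and not between cells in a liver and cells in a dish. Each derivative is a single line. The records call the 3 libraries of a group biological replicates without saying that they came from separate derivations, so p-values here measure the spread between these libraries.

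Lysyl oxidases are secreted copper-dependent amine oxidases. They turn the side-chain amines of lysine and hydroxylysine in collagen and elastin into aldehydes, which then condense into the covalent cross-links that stiffen fibres and basement membranes. Lox, the founding member, and Loxl1, which is best known from elastic fibre upkeep, are made as proenzymes with a propeptide that is cut off outside the cell, while Loxl2, Loxl3 and Loxl4 carry scavenger receptor cysteine-rich domains in front of the same catalytic domain. Loxl2 is known for cross-linking collagen IV of basement membranes and for a link to epithelial-mesenchymal transition, and the family is widely studied in the stiffening of tumors and of the liver.

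The members lie on 5 different chromosomes. In the GRCm38 build with the GENCODE M21 annotation, Lox (NCBI Gene 16948) occupies chr18:52516067-52529867 on the minus strand, and Loxl1 (16949) occupies chr9:58287738-58313186 on the minus strand. Loxl2 (94352) lies at chr14:69609068-69695834 on the plus strand, with a longest transcript of 5316 bases. Loxl3 (16950) lies at chr6:83034173-83052562 on the plus strand, with a longest transcript of 4098 bases. Loxl4 (67573) lies at chr19:42593982-42612813 on the minus strand, with a longest transcript of 3738 bases. These positions come from the reference and not from the deposited tables, which hold no coordinates.

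Loxl4 moved closely with Loxl2 across the libraries, and the RefSeq promoter table held an entry for it. The 250 bases before its RefSeq start (GRCm38.p6, chr19:42612807-42613056, minus strand) are shown 5′ to 3′ to let the sequence upstream of this member be seen beside its levels, with capitals marking the 3 GC boxes GGGCGG and the 1 hypoxia response core GCGTG, which reads CACGC on this strand.

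Loxl4: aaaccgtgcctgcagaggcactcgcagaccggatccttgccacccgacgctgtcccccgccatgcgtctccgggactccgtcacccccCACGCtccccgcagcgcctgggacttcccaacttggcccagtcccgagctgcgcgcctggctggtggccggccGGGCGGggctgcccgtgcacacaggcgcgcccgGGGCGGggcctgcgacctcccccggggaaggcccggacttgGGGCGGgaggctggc

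Both strands were searched for 6 short motifs. GGGCGG occurred 3 times, all on the strand shown, and 32.7% of the 32851 promoters of this length held it at least once. GCGTG occurred once on the opposite strand and was present in 28.2% of promoters. The other hypoxia response core ACGTG (in 16.6% of promoters), the Snail-type E-box CAGGTG (17.2%), the Smad motif CAGACA (17.1%) and the TATA-like ATAAAA (17%) were not found in this window. These are matches of letters, and no binding was measured.

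Transcripts of 3 of the 5 members were present at a clear level, and their levels lay far apart. On the TPM scale, which is per transcript length and so allows levels of different genes to be set side by side, the order in every library was Loxl2, Loxl4, Loxl3 and then Loxl1 and Lox near 0. Loxl2 stood between the percentiles 90.1 and 94.0 of the listed genes over the 9 libraries, Loxl4 between 67.3 and 74.0, and Loxl3 between 42.2 and 51.9. Taken as ratios, the gaps between Loxl2, Loxl4 and Loxl3 were larger than any spread of these genes between replicates, whereas Loxl1 and Lox could not be ordered.

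Lox was listed at 0 in 8 libraries and at 0.02 TPM in MC38-LM3b replicate 3. Loxl1 read 0.10, 0 and 0.03 TPM in MC38-P, 0, 0 and 0.03 TPM in MC38-LM3a, and 0.03 TPM in each of the 3 MC38-LM3b libraries. The groups overlapped for both genes. When the filter on low values was dropped, the limma fit gave Loxl1 a log2 fold change of -0.05 in MC38-LM3a (adjusted p = 0.450), and the MC38-LM3b libraries gave -0.02 (adjusted p = 0.744), each against MC38-P. As the tables hold no counts, sequencing depth is not known here and no limit of detection can be given for these 2 genes.

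Loxl2 read 123.23, 115.25 and 93.89 TPM in MC38-P, 127.72, 124.92 and 166.03 TPM in MC38-LM3a, and 169.77, 168.55 and 166.49 TPM in MC38-LM3b. Every derivative library was above every parental library, but MC38-LM3a replicate 2, at 124.92 TPM, was close to MC38-P replicate 1, at 123.23 TPM. How many of all tested genes separate by library in this way is not given here, for this or the other members. MC38-P replicate 3 was the lowest and MC38-LM3a replicate 3 the highest of its own group by a wide margin. The means were 111 ± 15.2, 140 ± 23.0 and 168 ± 1.66 TPM (SD, n = 3 each).

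Loxl4 read 28.65, 27.54 and 22.63 TPM in MC38-P, 30.66, 28.97 and 38.58 TPM in MC38-LM3a, and 41.3, 41.29 and 40.81 TPM in MC38-LM3b. The same 2 libraries stood apart within their groups as for Loxl2, in the same directions. The means were 26.3 ± 3.20, 32.7 ± 5.13 and 41.1 ± 0.280 TPM (SD, n = 3 each). The 3 groups did not overlap, although the nearest libraries of MC38-P and MC38-LM3a read 28.65 and 28.97 TPM.

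Loxl3, the lowest of the 3 expressed members, read 5.54, 4.69 and 4.43 TPM in MC38-P, 8.83, 8.52 and 9.38 TPM in MC38-LM3a, and 13.13, 12.15 and 11.45 TPM in MC38-LM3b. The groups were well separated, and replicate 3 was not set apart by a wide margin in any of them. The means were 4.89 ± 0.581, 8.91 ± 0.436 and 12.2 ± 0.844 TPM (SD, n = 3 each). The annotated exons of Loxl3 share 535 bases, or 11.6% of its exon bases, with Htra2 on the opposite strand, and whether the counting used strand is not given in the sources used here. Htra2, a mitochondrial protease gene, went from 42.9 ± 1.18 TPM in the parental line to 33.6 ± 1.32 and 40.5 ± 2.09 TPM for MC38-LM3a and MC38-LM3b (SD, n = 3). Its log2 fold changes were -0.34 (limma adjusted p = 0.00599) and -0.08 (adjusted p = 0.377), and the part of this overlap in the values of Loxl3 was not tested. For Loxl2 the shared stretch was 301 bases, or 5.57% of its exon bases, with the antisense gene Gm27177.

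**Figure D1:**
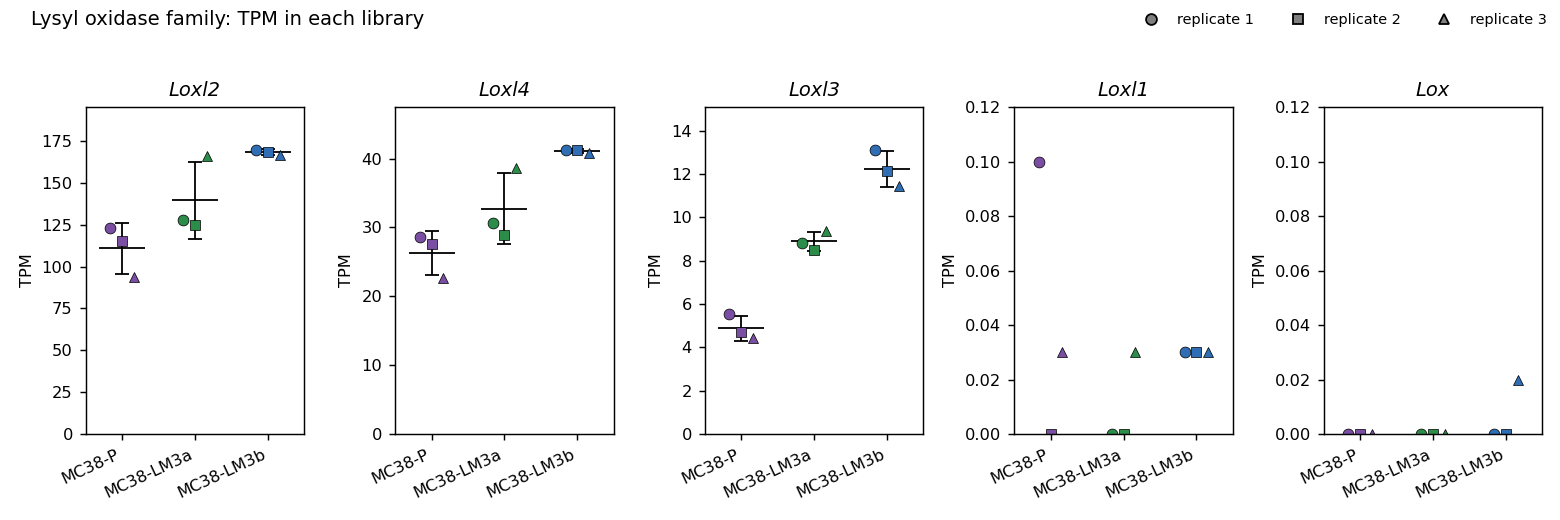
TPM of each family member (y axis, a separate linear scale for each gene) in the 3 lines, with 1 point per library, the replicate shown by marker shape, and for the 3 tested members a horizontal line at the group mean with bars of 1 SD. Loxl2, Loxl4 and Loxl3 are lowest in MC38-P and highest in MC38-LM3b, replicate 3 is low in MC38-P and high in MC38-LM3a for Loxl2 and Loxl4, and Loxl1 and Lox do not exceed 0.10 TPM.

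The first comparison asked which members differed between MC38-LM3a and the parental line. Loxl3 rose, with a mean 1.82 times that of MC38-P. Its log2 fold change on the log2(TPM + 1) scale was 0.76 (SE 0.111, 95% interval 0.51 to 1.00, limma adjusted p = 6.32e-04), and 2.62% of the tested genes had a larger one. Loxl2 and Loxl4 had means 1.26 and 1.25 times the parental means, and neither passed the threshold of 0.05 on the adjusted p. Their log2 fold changes were 0.33 (SE 0.119, 95% interval 0.06 to 0.59, limma adjusted p = 0.0643) and 0.30 (SE 0.119, 95% interval 0.04 to 0.57, limma adjusted p = 0.0837). Thus 1 of the 3 tested members was called higher, against 14.1% of all tested genes called higher in this comparison and 13.8% called lower. No member was past both the adjusted p and a log2 fold change of 1, a pair of thresholds that 1.39% of the tested genes passed upward. Without MC38-P replicate 1, Loxl2 passed as well, at 0.41 (limma adjusted p = 0.0456). In that fit 13.3% of the tested genes were called higher and 9.40% lower. Without MC38-LM3a replicate 3 or MC38-P replicate 3, Loxl2 came to 0.20 and 0.21 and Loxl4 to 0.18 and 0.20, with limma adjusted p from 0.119 to 0.209.

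In MC38-LM3b all 3 tested members rose against MC38-P. Loxl3 rose most, to a mean 2.51 times the parental mean, with a log2 fold change of 1.17 (SE 0.111, 95% interval 0.93 to 1.42, limma adjusted p = 2.88e-05). Only 1.75% of the tested genes had a larger one. Loxl4 rose 1.57 times, a log2 fold change of 0.63 (SE 0.119, 95% interval 0.37 to 0.90, limma adjusted p = 0.00185). Loxl2 rose 1.52 times, a log2 fold change of 0.61 (SE 0.119, 95% interval 0.34 to 0.87, limma adjusted p = 0.00237). The background was high here, as 35.6% of all tested genes were called higher and 11.2% lower, and the median log2 fold change of all tested genes was 0.21. Relative to that median the members stood at 0.96 for Loxl3, 0.42 for Loxl4 and 0.40 for Loxl2. Loxl3 was also past a log2 fold change of 1, as were 2.76% of the tested genes upward, but it came to 0.95 and fell short of 1 when each library was centred on its median. In bulk RNA, more cells with a transcript and more of it per cell cannot be told apart, nor can fewer and less, in this and in the other comparisons.

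Between the derivatives, every MC38-LM3b library was above every MC38-LM3a library for all 3 tested members, on the values as deposited. For Loxl2 the margin was narrow, with replicate 3 of the derivatives at 166.49 (MC38-LM3b) and 166.03 TPM (MC38-LM3a). The share of all tested genes that separate in this way between the derivatives is not given here either. The log2 fold changes were 0.42 for Loxl3 (95% interval 0.17 to 0.66, limma adjusted p = 0.119), 0.33 for Loxl4 (0.07 to 0.59, adjusted p = 0.119) and 0.28 for Loxl2 (0.02 to 0.54, adjusted p = 0.122). The median log2 fold change of all tested genes was 0.21 here too, and relative to it the members stood at 0.21, 0.12 and 0.07, with 12.3%, 25.6% and 35.6% of the tested genes above them. Quantile normalization gave 0.15, 0.12 and 0.18. None of the 3 passed the threshold after adjustment with limma, the tool used throughout, while all 3 had an unadjusted p under 0.05. Few genes passed at all, namely 4 of 11287 higher (0.0354%), 3 of them also past a log2 fold change of 1 (0.0266%), and 2 lower (0.0177%). The result turned on MC38-LM3a replicate 3. Without it, all 3 members were called higher, at 0.45 for Loxl3 (limma adjusted p = 0.0101), 0.45 for Loxl4 (0.00492) and 0.41 for Loxl2 (0.00524), but so were 52.2% of all tested genes. When MC38-P replicate 3 was left out too, that share was 65.0%.

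That library and MC38-P replicate 3 differed from the rest of their groups along transcript length. Across genes, the Spearman correlation between a library's deviation from the mean of the other libraries of its group and the length of the longest transcript was 0.51, 0.41 and -0.62 in the MC38-P libraries, -0.55, -0.51 and 0.64 in the MC38-LM3a libraries, and 0.02, -0.01 and -0.01 in the MC38-LM3b libraries. The log2 fold changes of MC38-LM3b against MC38-LM3a also went with length, with a Spearman correlation of 0.61 across genes, compared with 0.22 for MC38-LM3b and -0.11 for MC38-LM3a against MC38-P. Of the tested genes with a known length, 80.2% had a shorter longest transcript than Loxl2, 62.8% a shorter one than Loxl3 and 56.3% a shorter one than Loxl4. The values of the members were therefore also computed after a loess fit on GC content and transcript length was taken off each library, which left correlations with length of -0.01, -0.02 and 0.00 in the same order.

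After this correction the replicates drew together. Loxl2 then read 6.90, 6.87 and 6.86 in MC38-P, 7.23, 7.23 and 7.25 in MC38-LM3a, and 7.21, 7.22 and 7.21 in MC38-LM3b on the corrected log2 scale. Its SD within MC38-P went from 0.20 to 0.02, and within MC38-LM3a from 0.23 to 0.01. Loxl4 read 4.85, 4.85 and 4.79 in MC38-P, 5.15, 5.13 and 5.22 in MC38-LM3a, and 5.22, 5.25 and 5.24 in MC38-LM3b. For both genes the derivatives lay together above the parental line. Loxl3 read 2.67, 2.52 and 2.67 in MC38-P, 3.47, 3.46 and 3.27 in MC38-LM3a, and 3.64, 3.57 and 3.50 in MC38-LM3b, and its SD within MC38-LM3a did not shrink, being 0.06 before and 0.11 after.

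**Figure D2:**
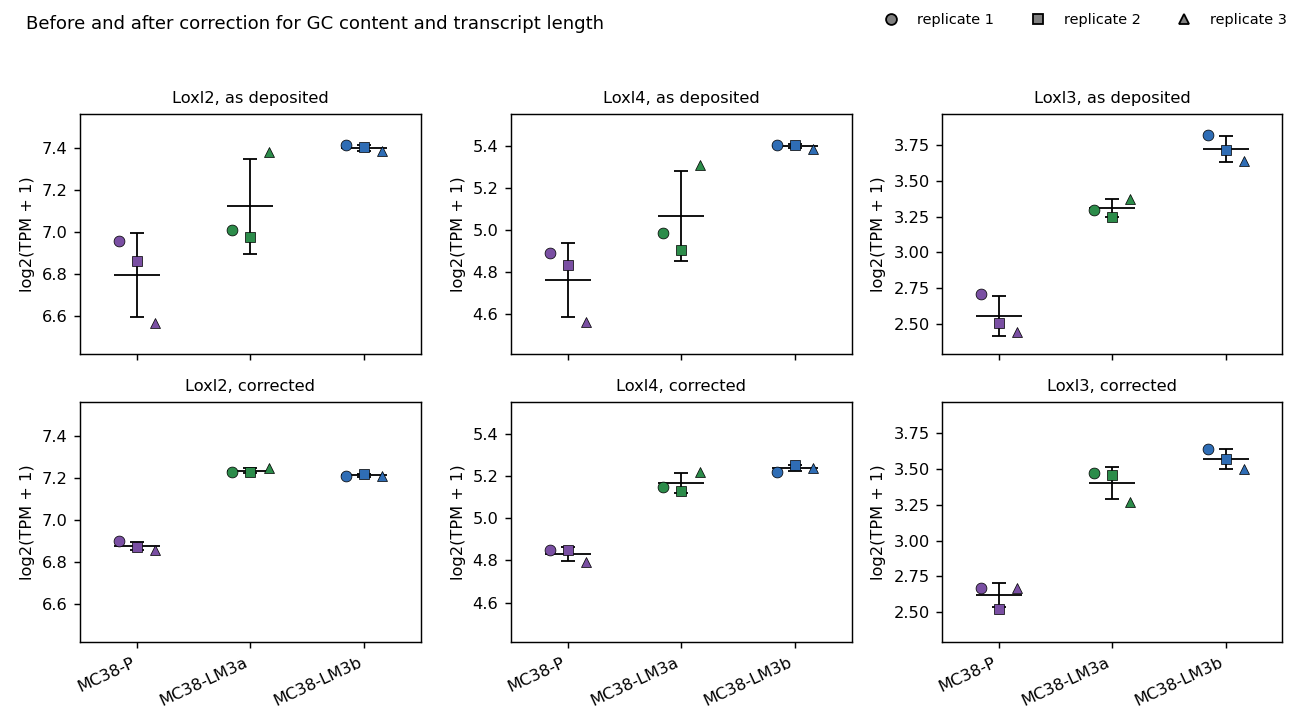
Values of Loxl2, Loxl4 and Loxl3 on the log2(TPM + 1) scale (y axis) in each library of the 3 lines, as deposited (upper row) and with the GC and length trend taken off (lower row), with the mean and 1 SD of each group. After the correction the 3 replicates of Loxl2 and Loxl4 nearly coincide, and both derivatives sit at a similar height above MC38-P.

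On the corrected values all 3 members rose in both derivatives. In MC38-LM3a the log2 fold changes against MC38-P were 0.78 for Loxl3 (SE 0.0757, limma adjusted p = 1.72e-05), 0.36 for Loxl2 (SE 0.0334, adjusted p = 1.32e-05) and 0.34 for Loxl4 (SE 0.0429, adjusted p = 1.00e-04), where 26.1% of 11096 genes were called higher. In MC38-LM3b they were 0.95 for Loxl3 (limma adjusted p = 3.76e-06), 0.41 for Loxl4 (2.30e-05) and 0.33 for Loxl2 (1.67e-05), where 29.1% of genes were called higher. Loxl2 and Loxl4 also passed in MC38-LM3a when each library was centred on its median (limma adjusted p = 0.00158 and 0.00147) and after quantile normalization (0.00856 and 0.00155), at log2 fold changes of 0.33 and 0.30 in both. In those 2 settings 19.8% and 21.5% of the tested genes were called higher. Between the derivatives the corrected differences were 0.17 for Loxl3 (95% interval 0.00 to 0.34, limma adjusted p = 0.220), 0.07 for Loxl4 (-0.03 to 0.17, adjusted p = 0.350) and -0.02 for Loxl2 (-0.10 to 0.05, adjusted p = 0.697), where 0.0991% of genes were called higher. The correction also centres each library and takes off any difference between the lines that follows length or GC content. Centring on the median alone gave 0.20 for Loxl3, 0.11 for Loxl4 and 0.06 for Loxl2.

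MC38-P replicate 3 and MC38-LM3a replicate 3 were also left out together before correcting, a check chosen after the data were seen. Against MC38-P, the log2 fold changes in MC38-LM3a were then 0.86 for Loxl3, 0.34 for Loxl2 and 0.29 for Loxl4, and those in MC38-LM3b were 0.97, 0.32 and 0.39, with limma adjusted p from 6.18e-06 to 3.43e-04, where 29.4% and 30.9% of genes were called higher. Between the derivatives they were 0.11 for Loxl3 (limma adjusted p = 0.302), 0.10 for Loxl4 (0.0861) and -0.02 for Loxl2 (0.648), where 13.5% of genes were called higher and 16.0% lower. Leaving them out with no correction gave Loxl2 and Loxl4 only 0.08 each in MC38-LM3a (limma adjusted p = 0.104 and 0.179). In this comparison 18.4% of genes were called higher and 45.2% lower, and the correlation of log2 fold change with length was -0.37. In MC38-LM3b all 3 were called in that fit, as were 46.3% of genes. The value of Loxl3 in MC38-LM3a was 0.67 in that fit (limma adjusted p = 1.90e-04), so its call held.

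**Figure D3:**
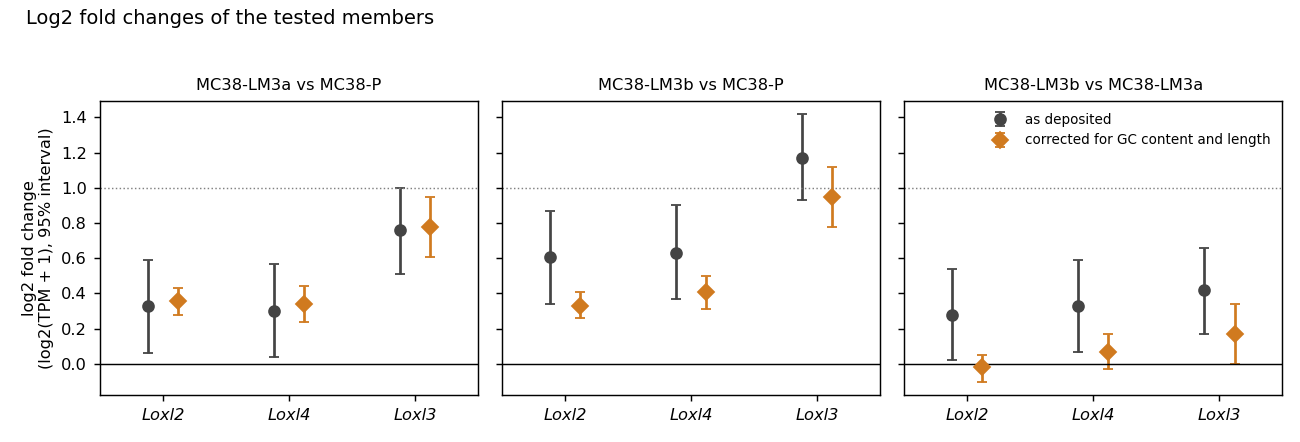
Log2 fold changes of Loxl2, Loxl4 and Loxl3 (y axis, log2(TPM + 1) scale) in the 3 comparisons, from values as deposited (circles) and corrected for GC content and transcript length (diamonds), with 95% intervals from limma and a dotted line at 1. Corrected values lie above 0 for all 3 members in both comparisons with MC38-P, and between MC38-LM3b and MC38-LM3a they lie from -0.02 to 0.17.

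Summed over the 5 members, the family amounted to 157.5, 147.5 and 121.0 TPM in MC38-P, 167.2, 162.4 and 214.0 TPM in MC38-LM3a, and 224.2, 222.0 and 218.8 TPM in MC38-LM3b. Loxl2 made up most of the sum in every library, with a share of 78.0 ± 0.338% in the parental line, 77.0 ± 0.598% in MC38-LM3a and 75.9 ± 0.190% in MC38-LM3b (SD, n = 3). The share of Loxl4 was nearly level, at 18.5 ± 0.290%, 18.1 ± 0.252% and 18.6 ± 0.122%. The share of Loxl3 went from 3.45 ± 0.247% in the parental line to 4.97 ± 0.509% for MC38-LM3a and 5.52 ± 0.314% for MC38-LM3b, and no parental library (3.18% to 3.66%) reached a derivative one (4.38% to 5.86%).

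Ratios within a library do not depend on how its total was scaled, although a length trend can still enter them. The log2 ratio of Loxl3 to Loxl2 was -4.50 ± 0.109 in the parental line, -3.96 ± 0.163 in MC38-LM3a and -3.78 ± 0.0852 in MC38-LM3b (SD, n = 3). It was higher by 0.54 in MC38-LM3a and by 0.72 in MC38-LM3b than in MC38-P, with no overlap of libraries and an exact two-sided permutation p of 0.1 in each case, the smallest that 3 libraries against 3 can give. Loxl3 to Loxl4 differed by 0.56 and 0.68 in the same 2 comparisons, again with an exact permutation p of 0.1. Between the derivatives these ratios overlapped, with differences of 0.18 (exact permutation p = 0.2) and 0.12 (exact permutation p = 0.4). The log2 ratio of Loxl4 to Loxl2 stayed between -2.11 and -2.03 in all 9 libraries, and the group means differed by at most 0.06. In MC38-LM3b it lay above both other groups, by 0.04 and 0.06 (exact permutation p = 0.1 each), and in MC38-LM3a it overlapped MC38-P (difference -0.02, exact permutation p = 0.5). In all, 9 such ratio tests were run, and none can pass 0.05 in this design.

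**Figure D4:**
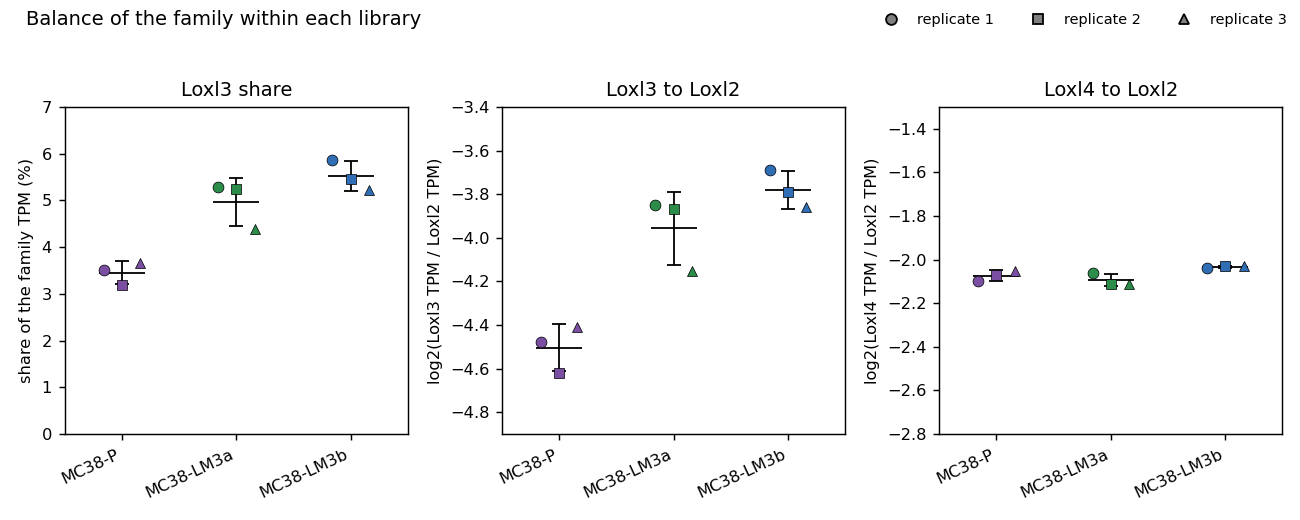
Share of Loxl3 in the summed TPM of the 5 members (left, percent) and the log2 ratios of Loxl3 to Loxl2 (middle) and of Loxl4 to Loxl2 (right, drawn over the same span of 1.5 log2 units as the middle) in each library, with the mean and 1 SD of each group. The Loxl3 values of both derivatives lie above those of MC38-P, and Loxl4 to Loxl2 stays between -2.11 and -2.03.

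Over the 9 libraries, which fall into 3 lines and share the length trend above, the Pearson correlation of log2(TPM + 1) was 0.99 between Loxl2 and Loxl4, 0.91 between Loxl2 and Loxl3, and 0.92 between Loxl3 and Loxl4. After the correction these were 0.97, 0.95 and 0.95. Such values were common, as 1387 genes exceeded 0.95 with Loxl2, 1419 with Loxl4 and 724 with Loxl3. The 3 genes most like Loxl2 by this measure were Ddx58, a sensor of viral RNA, Parva, an actin-binding protein of focal adhesions, and Cttnbp2nl (r = 0.999, 0.999 and 0.998). For Loxl4 they were Hsp90b1, a chaperone of the endoplasmic reticulum, Dagla, a diacylglycerol lipase, and Clcn4, a chloride transporter (0.999, 0.998 and 0.998). For Loxl3 they were Neu1, a lysosomal sialidase, Pdia6, a disulfide isomerase, and Krcc1 (0.995, 0.994 and 0.993). Mean TPM of Krcc1 went from 20.6 in MC38-P to 35.5 and 42.8 in the derivatives, and that of Parva from 66.5 to 85.0 and 103.

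The counts of list genes are to be read against all tested genes, of which 14.1% rose and 13.8% fell in MC38-LM3a and 35.6% rose and 11.2% fell in MC38-LM3b, or 26.1%, 24.9%, 29.1% and 28.8% in the same order on the corrected values. Between MC38-LM3b and MC38-LM3a the corrected shares were 0.0991% higher and 0.108% lower.

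The substrates of the family did not all move one way. Of 10 fibrillar collagen and elastin genes 4 were tested, of which 3 fell and 0 rose in MC38-LM3a, and 2 fell and 1 rose in MC38-LM3b. The medians were -1.03 and -0.72, beside medians of 0.00 and 0.21 over all tested genes. On the corrected values 1 rose and 3 fell in each derivative. Col3a1, a fibrillar collagen chain, fell from 140 ± 16.0 TPM in MC38-P to 55.0 ± 8.66 in MC38-LM3a (log2 fold change -1.34, limma adjusted p = 2.08e-05) and to 60.9 ± 3.60 in MC38-LM3b (-1.19, adjusted p = 3.64e-05). Col1a1, a chain of type I collagen, fell from 14.0 ± 3.15 to 4.07 ± 0.834 and 4.30 ± 0.135 TPM (limma adjusted p = 9.81e-05 and 9.91e-05). Its partner chain Col1a2 did not exceed 0.0800 TPM, and elastin, Eln, did not exceed 0.0300 TPM in any library. Col5a3, a chain of type V collagen, was the 1 that rose in MC38-LM3b, at 0.74 (limma adjusted p = 0.00207).

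Collagen IV is the sheet-forming collagen of basement membranes. Of 6 chains 3 were tested, of which 0 rose and 1 (Col4a5, log2 fold change -0.50, limma adjusted p = 0.0227) fell in MC38-LM3a, and 2 rose and 0 fell in MC38-LM3b. Col4a1 went from 247 ± 43.2 TPM to 321 ± 77.0 in MC38-LM3a (log2 fold change 0.37, limma adjusted p = 0.108) and rose to 427 ± 2.90 in MC38-LM3b (0.80, adjusted p = 0.00229). Col4a2 stood at 149 ± 23.9, 173 ± 35.0 and 228 ± 5.99 TPM, with log2 fold changes of 0.21 (limma adjusted p = 0.302) and 0.62 (0.00501). As with Loxl2, both passed in both derivatives after the length correction, at 0.45 and 0.48 for Col4a1 and at 0.32 and 0.30 for Col4a2, while Col4a5 was then called lower in both. The fall of Col1a1 and Col3a1 was larger on the corrected values for MC38-LM3b, at -1.78 and -1.47.

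Genes that process propeptides, which include those of Lox and of fibrillar collagens, were counted next. Of 9 genes 5 were tested, with 0 called in MC38-LM3a and 2 called higher in MC38-LM3b. Bmp1, the main procollagen C-proteinase, went from 101 ± 13.8 to 130 ± 23.1 TPM in MC38-LM3a (log2 fold change 0.35, limma adjusted p = 0.0547) and rose to 163 ± 1.71 in MC38-LM3b (0.69, adjusted p = 0.00135). The other was Pcolce, an enhancer of Bmp1, whose log2 fold change of 0.16 (limma adjusted p = 0.0264) was below the median of all genes and came to 0.00 after the correction. On the corrected values 1 gene rose and 1 fell in each derivative. The gene that rose was Bmp1 in both, at 0.41 in MC38-LM3a and 0.40 in MC38-LM3b (limma adjusted p = 6.15e-06 and 6.02e-06).

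Among partners in elastic fibres and matrix, 9 of 19 genes were tested, of which 1 rose and 4 fell in MC38-LM3a, and 3 rose and 3 fell in MC38-LM3b. After the correction 2 rose and 4 fell in each derivative. Emilin1, a glycoprotein of elastic fibres, rose from 10.3 ± 1.14 to 32.3 ± 4.71 and 52.1 ± 3.26 TPM (log2 fold changes 1.55 and 2.23, limma adjusted p = 8.23e-06 and 5.15e-07). Fibronectin, Fn1, fell from 55.2 ± 13.2 to 15.2 ± 4.41 and 24.4 ± 0.997 TPM (-1.79 and -1.11, limma adjusted p = 1.16e-04 and 0.00149). Efemp2, which brings Lox to elastic fibres, stood at 105 ± 6.53, 106 ± 4.67 and 109 ± 3.50 TPM, with log2 fold changes of 0.02 and 0.05 (limma adjusted p = 0.868 and 0.539). Fbln5, which links elastin to cells, was under the filter, at 0.413 ± 0.0503, 0.483 ± 0.220 and 1.08 ± 0.105 TPM.

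Copper is the cofactor of all 5 enzymes. Of 11 genes of copper uptake, delivery and reduction 9 were tested, of which 3 rose and 1 fell in MC38-LM3a, and 5 rose and 1 fell in MC38-LM3b. The medians were 0.11 and 0.21, the second equal to the median of all genes, and the shares that rose were 33.3% and 55.6%, beside 14.1% and 35.6% of all genes. After the correction 4 rose and 1 fell in MC38-LM3a, and 4 rose and 2 fell in MC38-LM3b. Slc31a2, a copper transporter, rose from 17.5 ± 2.88 to 30.5 ± 3.64 and 34.7 ± 1.75 TPM (log2 fold changes 0.77 and 0.96, limma adjusted p = 0.00115 and 2.16e-04). Atox1, the chaperone that hands copper to the secretory pathway, rose by 0.27 and 0.21 (limma adjusted p = 0.00698 and 0.0183). Atp7a, the pump that loads secreted copper enzymes, stood at 5.62 ± 0.831, 6.21 ± 1.95 and 8.11 ± 0.172 TPM. Its log2 fold change was 0.10 for MC38-LM3a (limma adjusted p = 0.728) and 0.47 for MC38-LM3b (adjusted p = 0.0481), and the latter came to 0.21 and lost its call after the correction (adjusted p = 0.0613). Slc31a1, the main copper importer, had values of 0.06 and 0.21 (limma adjusted p = 0.678 and 0.0630). Steap3, a metal reductase, fell by 1.12 and 0.78 (limma adjusted p = 6.14e-04 and 0.00338).

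Collagen lysine and proline modification precedes cross-linking, since lysyl oxidases act on lysine and hydroxylysine. Of 17 genes 16 were tested, of which 6 rose and 4 fell in MC38-LM3a, and 9 rose and 3 fell in MC38-LM3b, with medians of 0.11 and 0.25. After the correction 8 rose and 4 fell in MC38-LM3a, and 6 rose and 4 fell in MC38-LM3b. Plod2, which hydroxylates the telopeptide lysines used in cross-links, fell from 83.0 ± 9.97 to 57.3 ± 13.0 TPM in MC38-LM3a (log2 fold change -0.54, limma adjusted p = 0.0147) and stood at 69.0 ± 2.40 in MC38-LM3b (-0.26, adjusted p = 0.151). After the correction Plod2 was called lower in both derivatives, at -0.56 and -0.49. P4ha3, a prolyl hydroxylase subunit, rose by 0.84 and 1.32 (limma adjusted p = 0.00110 and 4.88e-05), and P3h4, a partner of the lysyl hydroxylase complex, fell by 0.77 and 0.92 (limma adjusted p = 6.35e-05 and 1.48e-05).

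Regulators that are known to act on lysyl oxidase genes or to be coupled to them gave mixed values. In the TGF-beta axis 13 of 14 genes were tested, of which 1 rose and 2 fell in MC38-LM3a, and 5 rose and 1 fell in MC38-LM3b, with medians of 0.01 and 0.25. The 38.5% that rose in MC38-LM3b was near the 35.6% of all genes. After the correction 1 rose and 4 fell in MC38-LM3a, and 4 rose and 2 fell in MC38-LM3b, with medians of 0.04 and 0.00. The ligand gene Tgfb1 had log2 fold changes of -0.23 and 0.15 (limma adjusted p = 0.140 and 0.247). On the corrected values Tgfb1 was called lower in MC38-LM3a, at -0.25 (limma adjusted p = 0.0114), and came to 0.00 in MC38-LM3b (adjusted p = 0.990). The receptor gene Tgfbr2 rose by 0.57 and 0.91 (limma adjusted p = 0.00711 and 3.15e-04), and Tgfbi, a matrix protein gene induced by TGF-beta, fell by 1.30 and 1.40 (limma adjusted p = 2.71e-04 and 1.24e-04). All 7 transcription factors of epithelial-mesenchymal transition were tested, of which 1 rose in MC38-LM3a and 4 rose in MC38-LM3b, with medians of 0.14 and 0.39 and 0 that fell. These are shares of 14.3% and 57.1%, beside 14.1% and 35.6% of all genes. After the correction 4 rose and 1 (Snai1, -0.33, limma adjusted p = 0.0389) fell in MC38-LM3a, and 4 rose and 0 fell in MC38-LM3b, with medians of 0.23 and 0.26. Snai2 rose from 2.16 ± 0.186 to 4.82 ± 0.961 and 6.07 ± 0.902 TPM (limma adjusted p = 0.00146 and 1.80e-04). Snai1, whose protein Loxl2 is reported to stabilise, stood at 22.3 ± 2.96, 17.3 ± 3.18 and 20.5 ± 0.938 TPM before the correction (limma adjusted p = 0.0745 and 0.524).

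Of 16 hypoxia factors and targets 15 were tested, of which 3 rose and 1 fell in MC38-LM3a, and 7 rose and 1 fell in MC38-LM3b, with medians of 0.13 and 0.29. The 3 of 15 that rose in MC38-LM3a stand beside 14.1% of all genes, and the 46.7% that rose in MC38-LM3b beside 35.6%. After the correction 5 rose and 3 fell in MC38-LM3a, and 5 rose and 2 fell in MC38-LM3b. Bnip3, a mitophagy receptor, rose by 0.83 and 0.84 (limma adjusted p = 2.70e-05 and 1.88e-05), while Ndrg1, another hypoxia target, fell by 1.12 and 0.95 (limma adjusted p = 2.35e-05 and 5.41e-05). Hif1a had log2 fold changes of -0.18 and 0.13 (limma adjusted p = 0.376 and 0.439). After the correction Hif1a was called lower in both derivatives, at -0.18 and -0.14 (limma adjusted p = 0.00988 and 0.0294). Of the other copper amine oxidases only Aoc2 was tested, with values of -0.11 and 0.34 (limma adjusted p = 0.748 and 0.211). Between MC38-LM3b and MC38-LM3a 0 genes of these lists passed the limma threshold as deposited, and 2 did on the corrected values, Emilin1 higher (0.36, adjusted p = 0.0233) and Fkbp10, a collagen chaperone, lower (-0.26, adjusted p = 0.0380). The lists were not compared with other genes by a test, and both comparisons use the same MC38-P libraries.

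**Figure D5:**
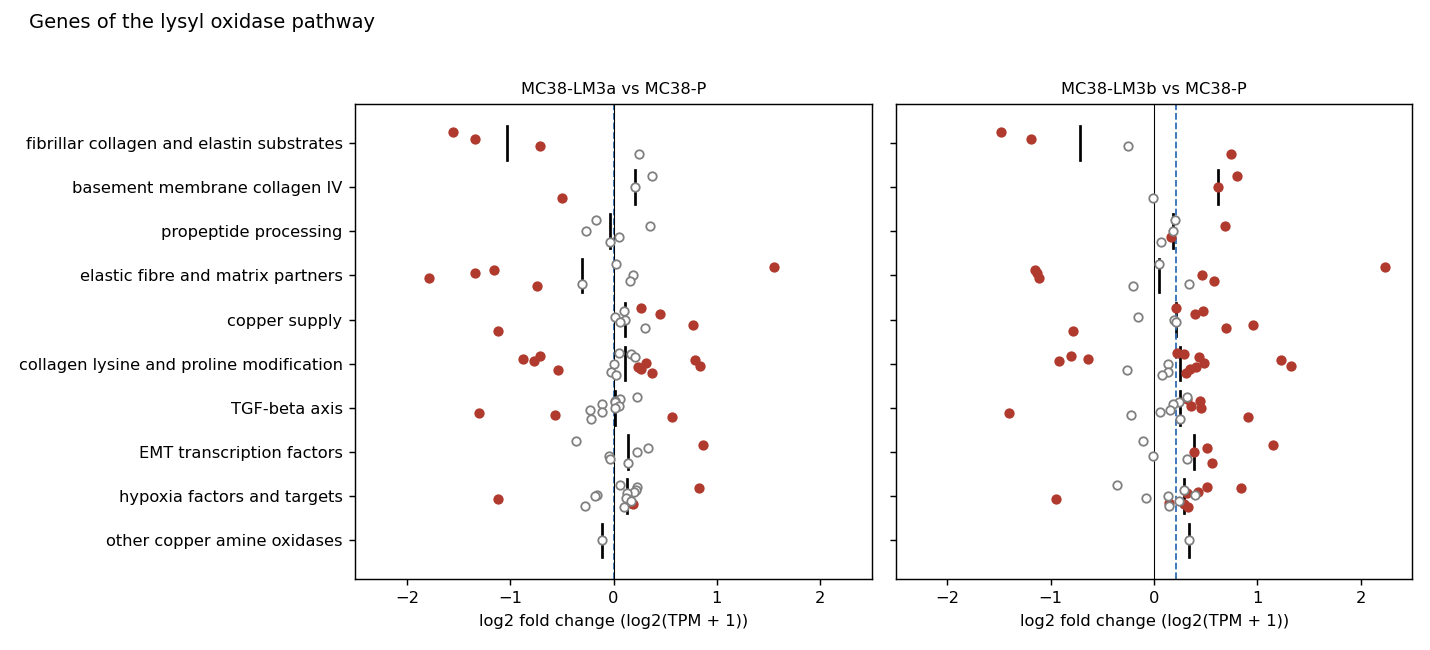
Log2 fold changes (x axis, log2(TPM + 1) scale) of the tested genes of each pathway list in MC38-LM3a (left) and MC38-LM3b (right) against MC38-P, with filled points for adjusted p under 0.05, open points for the rest, a vertical tick at the median of each list and a dashed line at the median of all tested genes (0.00 and 0.21). Fibrillar collagen genes lie mostly to the left with a list median of -1.03 and -0.72, while collagen IV has a list median of 0.21 and 0.62.

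Other cell types could also carry lysyl oxidase transcripts, so their markers were summed. The summed TPM of the stellate and fibroblast markers (7 of 10 listed) ranged from 7.87 to 8.89 in MC38-P, from 4.16 to 5.65 in MC38-LM3a and from 6.38 to 7.24 in MC38-LM3b, with Dcn at 0.130 or less. Of the 3 tested, Acta2 fell in both derivatives (log2 fold changes -0.90 and -1.02, limma adjusted p = 0.00225 and 7.79e-04), while Pdgfrb stood at 1.54 ± 0.338, 2.13 ± 0.389 and 3.66 ± 0.163 TPM and rose in MC38-LM3b (0.88, adjusted p = 6.95e-04) and, on the corrected values, in both derivatives. Hepatocyte markers (6 of 8 listed) summed to at most 1.30 TPM and endothelial markers (6 of 7) to at most 2.07 TPM. Macrophage markers (3 of 8 listed) ranged from 27.8 to 29.7, from 34.2 to 41.0 and from 39.7 to 45.6 TPM, a sum carried by Cd68, with Csf1r at 0.140 or less. Their part in the rise of Loxl2, Loxl3 and Loxl4 was not tested. Colon epithelial markers summed to between 2000 and 2320 TPM in MC38-P, 1590 and 1810 in MC38-LM3a and 1580 and 1630 in MC38-LM3b, mainly through the keratins Krt8 and Krt18. Epcam and Cdx2 fell in both derivatives, with mean TPM of 5.76, 2.05 and 2.21 for Epcam and 2.27, 0.630 and 0.410 for Cdx2 (limma adjusted p from 9.61e-05 to 0.00101), whereas Krt19 and Krt20 rose in MC38-LM3a, by 0.39 and 0.55 (limma adjusted p = 0.00358 and 0.0344). In all, 4 of the 10 (Cdh1, Vil1, Lgr5 and Muc2) were under 1 TPM in every library.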

How the data were processed

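The authors deposited TPM for each library, rounded to 2 decimals; HISAT and GRCm39 are named in the submitters' processing notes, while the quantification tool and annotation are not given in the sources used here. Because these are not counts, log2(TPM + 1) was analysed with limma 3.58.1 (R 4.3.3), and 11287 genes that reached 1 TPM in 3 or more libraries were kept. All 9 libraries entered a single linear model of group means, moderated by empirical Bayes with a variance trend, and p-values were adjusted after Benjamini and Hochberg over every gene kept. Thresholds were an adjusted p of 0.05 and, as a second one, a log2 fold change of 1. Fold changes on this scale understate those of low genes. Libraries held 10875 to 11218 genes at 1 TPM or more, and their depth is unknown.

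GC content and longest transcript length were taken from GENCODE M21, which covered 98.3% of these genes. For the correction, a loess curve (span 0.3) on both properties was fitted to each library's deviations from the gene means over all 9 libraries. That curve was subtracted, which also centres the library and takes off any difference between lines that follows length or GC content. Coordinates are GRCm38 and were not mixed with the authors' build. From the RefSeq promoter table, the entry of Loxl4 was used, with the 250 bases before the start. Entries on chromosome 18, where Lox lies, were left out of that search, and Loxl1, Loxl2 and Loxl3 yielded none.

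The members and the gene lists were chosen with earlier results of these data known. Named genes are all members, the largest rise and fall of each pathway list (marker lists apart) among genes called in both comparisons with MC38-P, a set of genes named for their role, and the 3 genes most correlated with each tested member. Col5a3, Pcolce, Col4a5, Fkbp10, Aoc2, the markers and the overlapping genes are named beyond that rule, after their values were seen. Alternatives changed the pseudocount (0.1), the filter, the libraries in the model, a replicate block, the normalization, the length correction and each library left out in turn. Leaving out both replicate 3 libraries, with and without the correction, and the ratios between members were added after seeing the data. The fit was tested on simulated data. Figures were drawn with matplotlib 3.10.9.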

Additional observations from a re-analysis of the deposited data

How the results depend on the processing

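Of 171 alternative values for the 9 log2 fold changes of members, 154 kept their direction and their side of the threshold, 17 did not, and 2 of these reversed. Against MC38-P, the number of members called in MC38-LM3a went from 1 to 3 with quantile normalization, median centring, the GC and length correction, and that correction without both replicate 3 libraries, where 21.5%, 19.8%, 26.1% and 29.4% of all genes were called higher. In these 4 settings Loxl2 came to 0.33, 0.33, 0.36 and 0.34 and Loxl4 to 0.30, 0.30, 0.34 and 0.29. Leaving out each library in turn gave 1 to 2 members called, with Loxl2 from 0.20 to 0.41 (without MC38-P replicate 1, adjusted p = 0.0456) and Loxl4 from 0.18 to 0.38. In these fits 14.2% or fewer of all genes were called higher, and 13.3% in the fit without MC38-P replicate 1. In MC38-LM3b the 3 members were called in all 19 alternatives, in which 22.9% to 46.3% of all genes were called higher, but the number also past a log2 fold change of 1 went from 1 to 0 in the same 4 settings, with Loxl3 at 0.91, 0.95, 0.95 and 0.97. Between the derivatives, 0 to 3 members were called when libraries were left out in turn, and 3 without MC38-LM3a replicate 3 or without both replicate 3 libraries, where 52.2% and 65.0% of all genes were called higher. The ranges over left-out libraries were 0.21 to 0.41 for Loxl2, 0.37 to 0.46 for Loxl3 and 0.25 to 0.45 for Loxl4, and without both they came to 0.41, 0.45 and 0.45. Loxl2 reversed to -0.02 with the correction, with all libraries and without both. The cause was not tested. The log2 ratios of Loxl3 to Loxl2 and to Loxl4 in MC38-LM3a against MC38-P were 0.68 and 0.68 without both libraries, and those of MC38-LM3b against MC38-LM3a went from 0.18 to 0.08 and from 0.12 to 0.03. With a replicate block the values for MC38-LM3a were 0.33 for Loxl2 (limma adjusted p = 0.141), 0.76 for Loxl3 (0.00478) and 0.30 for Loxl4 (0.174), and the block changed no call of a member. Deviations of same-numbered libraries correlated at -0.66 to 0.07. As the deviations in MC38-P and MC38-LM3a also went with transcript length, these values cannot tell whether the numbers pair the libraries. With TPM alone, neither depth nor counting error can be given, and Lox and Loxl1 cannot be compared between lines.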
